A study of Mus musculus with 18 samples.

Results

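The insulin-like growth factor (IGF) axis was followed through 10 genes, which were the rows of the deposited count table that matched the mouse symbols Igf1, Igf1r, Irs1, Irs2, Igfbp2, Igfbp3, Igfbp4, Igfbp5, Igfbp6 and Igfbp7. All 10 were found, each in 1 row, among the 54347 genes of the table. RNA-seq was carried out on mesenchymal stem cells (MSC) grown from the marrow of male C57BL/6J mice, with 3 libraries in each of 6 groups. In the first experiment MSC were untreated (control), treated with the Arp2/3 inhibitor CK666, which stops the branching of actin filaments, or treated with cytochalasin D (CytoD), which blocks the growth of actin filaments. In the second experiment MSC were transfected with a control siRNA (siControl), with an siRNA against Arp4 (siArp4), or with the Arp4 siRNA followed by CK666 (siArp4+CK666). The gene that encodes Arp4 is Actl6a. By the methods of the study, cells of all groups were kept in medium with fetal bovine serum, which itself carries IGFs, and transfection was done overnight without serum. A group given siControl and CK666 was not analysed here, so the transfection and the experiment cannot be told apart in any comparison of the first experiment with the second.

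IGF1 is a secreted growth factor that binds the IGF1 receptor, a tyrosine kinase at the cell surface. The active receptor phosphorylates the docking proteins IRS1 and IRS2, which recruit PI3-kinase and so switch on AKT and mTOR, while other adaptors lead to RAS and ERK. IGF binding proteins hold the ligand in the medium and matrix, and proteases release it from them. In marrow stroma this axis is known for promoting growth and both bone and fat cell formation.

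Library totals ran from 18075610 to 24733212 estimated counts. Actl6a, the targeted gene, lay at 720 to 1127 normalized counts in siControl and at 9.52 to 57.2 in the 6 libraries given the Arp4 siRNA. Of 10 stromal markers Col1a1, Col1a2, Cxcl12, Pdgfra, Pdgfrb and Cd44 were above 195 normalized counts in all 18 libraries, whereas Thy1 was at 0 in all 18, Nt5e did not exceed 8.16, Eng ran from 5.29 to 75.5 and Lepr from 0.930 to 37.9. One technical feature touched several members. The dependence of counts on transcript length, taken as the slope of log2 count on log2 exon length within a library, was -0.35 in siControl replicate 2, -0.22 in CK666 replicate 1, and 0.21 and 0.24 in replicate 1 of siControl and of siArp4+CK666, with the other libraries between -0.14 and 0.10. It is given below beside the members that moved with it, as is a refit with the trend removed, an alternative chosen once the data had been seen.

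Levels are given first on a scale that allows genes to be set side by side, CPM (counts scaled to the library total) per kilobase of exon (mean ± SD, n = 3). In control MSC the binding protein Igfbp7 was at 610 ± 19 and Igfbp4 at 54.1 ± 2.4. The docking protein gene Irs1 followed at 13.8 ± 1.5, then Irs2 at 5.70 ± 0.46, the receptor Igf1r at 3.22 ± 0.69 and the ligand Igf1 at 0.551 ± 0.117. The order held at the top in siControl, with Igfbp7 at 686 ± 169 and Igfbp4 at 51.8 ± 7.9. Lower down, Igf1r at 1.88 ± 0.84, Igf1 at 1.84 ± 0.25 and Irs2 at 1.29 ± 0.58 did not differ in siControl beyond their spread. Irs1 there had a level of 5.62 with an SD of 7.04, larger than its mean. The remaining binding proteins were scarce. Igfbp3 had no count in any of 18 libraries, which allows at most 0.121 to 0.166 CPM, and Igfbp2 had a count in only 1 library, CytoD replicate 1, at 1.06 normalized counts. Igfbp6 ran from 0 to 9.72 normalized counts and Igfbp5 from 0 to 41.2. With CytoD the Igfbp6 values of 5.15 to 6.38 lay above those of control (0.974 to 1.93) and CK666 (0 to 1.02), but none of these 4 genes had enough counts to receive an adjusted p in the first experiment.

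Between experiments some levels stood far apart. On a scale fitted to all 18 libraries, Igf1 averaged 110 ± 23 normalized counts in control and 389 ± 51 in siControl, while Irs2 averaged 724 ± 56 and 167 ± 49. The highest of 9 Igf1 values in the first experiment was below the lowest of 9 in the second. No test was run on these gaps, since transfection and experiment changed together.

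**Figure D1:**
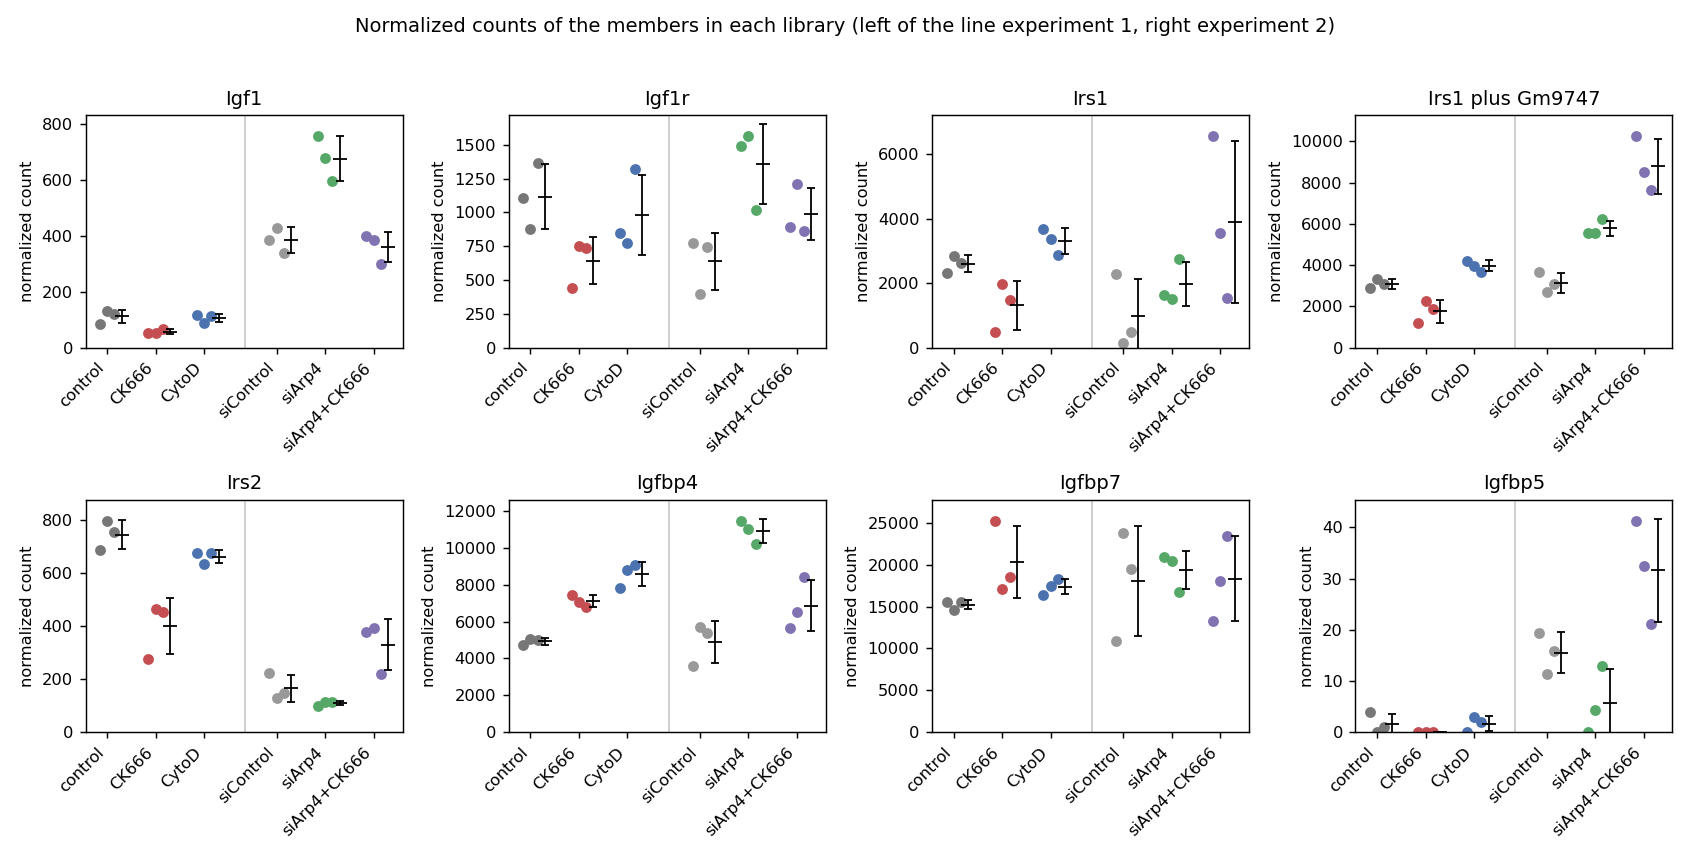
Normalized counts (y axis, from 0) of Igf1, Igf1r, Irs1, the sum of Irs1 and Gm9747, Irs2, Igfbp4, Igfbp7 and Igfbp5 in each library, with groups on the x axis and replicates 1 to 3 from left to right. Black marks are the mean ± SD of 3 libraries, cut at 0, and counts were scaled within each experiment, left and right of the grey line. The siArp4 libraries of Igf1 sit between 597 and 756, above all other libraries of Igf1.

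In bulk RNA a change in the number of cells of a type and a change in RNA per cell cannot be told apart. Macrophages are a known source of Igf1. Of their 7 markers, Ptprc, Adgre1 and Itgam were below 10 normalized counts in each library but siArp4+CK666 replicate 3. Adgre1 was at 12.6 there. The other markers were above 0 in all 18 libraries. Cd68 ran from 15.2 to 113, Csf1r from 12.4 to 181, Cd14 from 40.8 to 127 and Lyz2 from 11.02 to 189. The sum of the 7 ran from 223 to 289 in control and from 173 to 249 with CK666, and from 149 to 377 in siControl and from 172 to 185 in siArp4. It ran from 351 to 386 with CytoD and from 147 to 377 with siArp4+CK666. Its part in the Igf1 values was not tested. Hepatocyte markers did not exceed 7.38 in sum in any library. The summed adipocyte markers, led by Lpl, lay between 17196 and 18137 in control, 31459 and 32821 with CK666, and 54412 and 56693 with CytoD. In the second experiment they lay between 64232 and 78213 in siControl, 14454 and 15770.0 in siArp4, and 59852 and 62456 with siArp4+CK666. Among transfected cells the adipocyte sum was lowest where Igf1 was highest. The sum of the 10 stromal markers moved with Igf1 in some comparisons and apart from it in others. With CytoD the sum was above control while Igf1 stayed within the control range. With siArp4+CK666 it was below siControl while the Igf1 values overlapped. The stromal sum lay between 201268 and 214009 in control, 101324 and 116994 with CK666, and 267444 and 286760 with CytoD. After transfection it lay between 140901 and 216014 in siControl, 219699 and 248070 in siArp4, and 119531 and 137720 with siArp4+CK666. The part of both sums in the values of the axis was not tested.

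The first comparison asks how the axis responded when Arp2/3 was inhibited. With CK666, the ligand, its receptor and the docking protein gene Irs2 were all lower than in control, and the binding protein Igfbp4 was higher. A gene was called where its DESeq2 Benjamini-Hochberg adjusted p was below 0.01 and its log2 fold change was over 1 in size. By that rule no member was called (0 of 10), beside 4.89% of tested genes called higher and 6.06% called lower. On the adjusted p alone 4 members passed, 1 higher and 3 lower, of the 6 that had an adjusted p, beside 30.0% of all tested genes. edgeR also called 0, and 6 members had an unadjusted p below 0.05.

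Igf1 lay at 86.1, 131 and 120.0 normalized counts in control and at 51.1, 53.0 and 67.0 with CK666. The groups did not overlap, and Igf1 fell by 0.98 on the log2 scale (SE 0.27, DESeq2 adjusted p = 0.00106), just under the fold minimum. Without CK666 replicate 3 (-1.10) or without control replicate 1 (-1.14) it passed both thresholds. Igf1r lay at 1108, 878 and 1364 in control against 441, 753 and 737, again without overlap, and fell by 0.79 (SE 0.26, DESeq2 adjusted p = 0.00742). With edgeR its adjusted p was 0.0371, over the threshold. Its lowest library was CK666 replicate 1, which had a length slope of -0.22. With the length trend removed the log2 difference of Igf1r was -0.68 (DESeq2 adjusted p = 0.00859). Irs2 was at 684, 795 and 752 in control and at 277, 465 and 453 with CK666, a fall of 0.90 (SE 0.19, DESeq2 adjusted p = 1.26e-05). Without CK666 replicate 2 (-1.02) Irs2 passed both thresholds. Each CK666 library was thus below each control library for the ligand, the receptor and this docking protein. The share of all tested genes whose groups lay apart in this way was not counted, so nothing particular to the axis is read from it.

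Igfbp4, which binds IGFs and keeps them from the receptor, went the other way. Its counts were 4711, 5077 and 4996 in control and 7434, 7061 and 6789 with CK666, a rise of 0.53 (SE 0.09, DESeq2 adjusted p = 9.1e-08) that stayed under the fold minimum. Igfbp7, a secreted protein that binds IGFs only weakly, was at 15487, 14614 and 15587 in control and at 25207, 17122 and 18549 with CK666. The high library was CK666 replicate 1, in which short transcripts such as that of Igfbp7 (1209 exon bases) had more counts. The log2 difference of 0.41 had a DESeq2 adjusted p of 0.0127, and with the length trend removed it was 0.24 (SE 0.06, DESeq2 adjusted p = 0.000106).

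CytoD left most of the axis near the control level. Again 0 members were called by DESeq2, and 0 by edgeR, beside 4.80% of tested genes called higher and 4.32% lower. Igfbp4 was the member that passed on adjusted p, as did 29.6% of all tested genes, and the only member with an unadjusted p below 0.05 (1 of 10). Its CytoD counts of 7834, 8791 and 9074 lay above every control and CK666 library, and it rose by 0.80 (SE 0.09, DESeq2 adjusted p = 8.26e-17). Igf1 with CytoD was at 117, 89.1 and 112, within the control range, with a log2 difference of -0.09 (95% interval -0.59 to 0.42). Irs2 at 676, 631 and 676 had a difference of -0.17 (95% interval -0.54 to 0.20), and Igf1r one of -0.19 (95% interval -0.69 to 0.32). These intervals leave room for falls of up to about the size seen with CK666 for Igf1r, and for smaller ones for Igf1 and Irs2.

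Set directly against CytoD, CK666 gave lower values of 3 members on adjusted p (Igf1, Irs2 and Igfbp4), beside 31.8% of all tested genes, and none that was higher. No member was called by DESeq2 or by edgeR (0 in each), beside 5.08% of tested genes called higher and 6.74% lower, while 6 had an unadjusted p below 0.05. Igf1 was lower by 0.89 (-0.89, SE 0.27, DESeq2 adjusted p = 0.00306) and Irs2 by 0.73 (-0.73, SE 0.19, DESeq2 adjusted p = 0.000502). For Igfbp4 the difference was -0.27 (SE 0.09, DESeq2 adjusted p = 0.0092), so the rise with CytoD was the larger. Without CK666 replicate 3 (-1.02) or CytoD replicate 2 (-1.005) Igf1 passed the fold minimum.

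**Figure D2:**
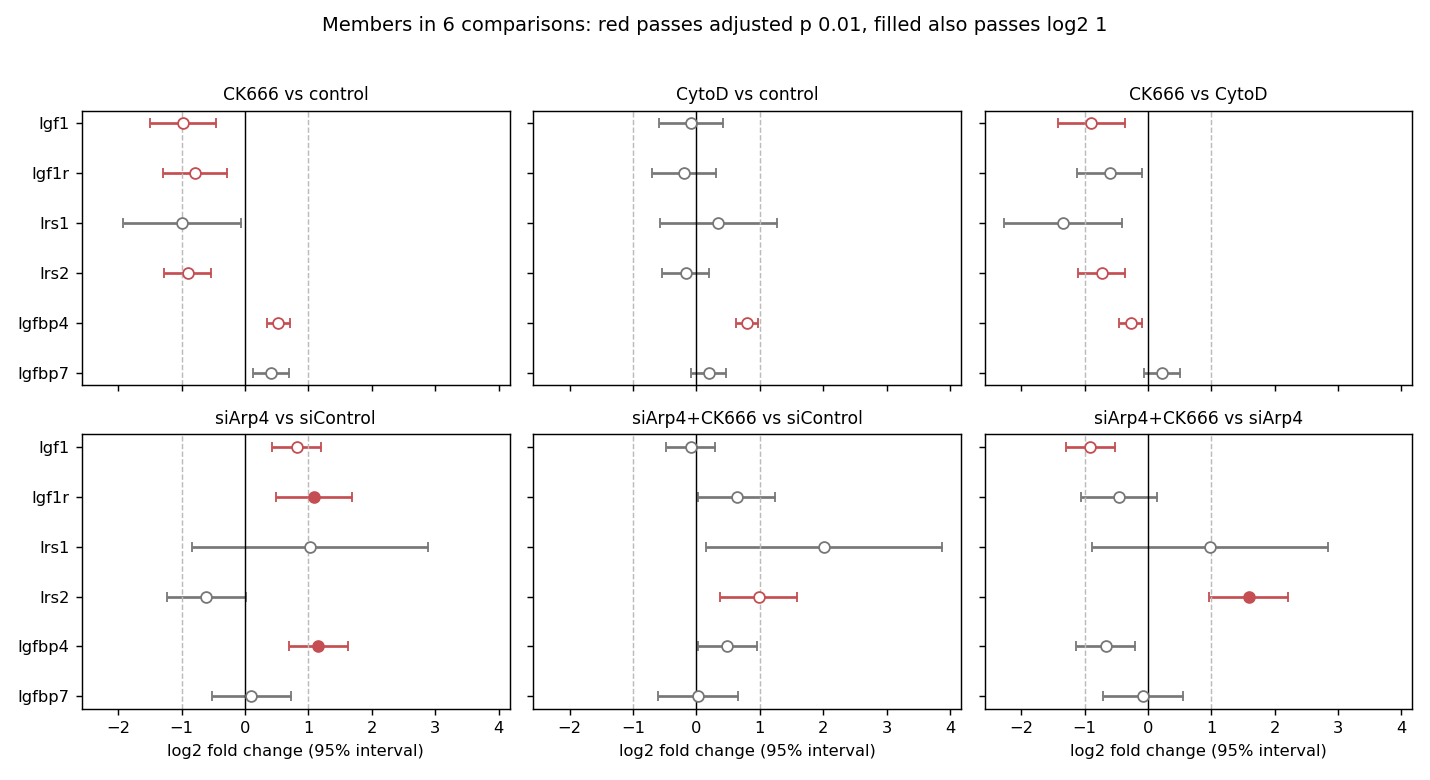
Log2 fold changes (x axis) with 95% intervals of Igf1, Igf1r, Irs1, Irs2, Igfbp4 and Igfbp7 in 6 comparisons, from DESeq2. Red points pass an adjusted p of 0.01 and filled points also pass a log2 fold change of 1, which holds for Igf1r and Igfbp4 in siArp4 against siControl and for Irs2 in siArp4+CK666 against siArp4.

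The second experiment asks what the loss of Arp4, an actin-related protein of nuclear chromatin remodelling complexes, did to the same genes. Igf1, Igf1r and Igfbp4 rose with the Arp4 siRNA. Of the 10 members 2 were called, both higher (Igf1r and Igfbp4), beside 6.69% of tested genes called higher and 9.49% called lower. On adjusted p alone 3 of the 8 members tested passed, beside 25.1% of all tested genes.

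Igf1 lay at 386, 430.1 and 339.96 normalized counts in siControl and at 756, 678 and 597 in siArp4, without overlap. It rose by 0.81 (SE 0.20, DESeq2 adjusted p = 0.000242), under the fold minimum, and with the length trend removed the difference was 0.68 (DESeq2 adjusted p = 0.0155). Igf1r was at 771, 395 and 747 in siControl and at 1489, 1561 and 1018 in siArp4, and rose by 1.09 (SE 0.31, DESeq2 adjusted p = 0.0022). This call was not firm. It was lost without siControl replicate 2 (0.83), siArp4 replicate 1 (adjusted p = 0.0249) or siArp4 replicate 2 (0.98), with edgeR (adjusted p = 0.0196), and with the length trend removed (0.96), although the groups did not overlap.

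Igfbp4 was at 3584, 5734 and 5365 in siControl and at 11460.2, 11046 and 10193 in siArp4. Every knockdown library was thus well above every control library, and the gene rose by 1.16 (SE 0.24, DESeq2 adjusted p = 9.81e-06). Without siControl replicate 1, its lowest library, the rise was 0.97 and fell just under the fold minimum. Irs2 at 99.4, 116 and 113 in siArp4 was below all siControl libraries (224, 128 and 147), with a difference of -0.61 (95% interval -1.24 to 0.02, DESeq2 adjusted p = 0.129). Igfbp7 ranged from 10859 to 23803 in siControl, and the siArp4 libraries fell inside that range. Its log2 difference was 0.10 (SE 0.32), and 0.35 (SE 0.11, DESeq2 adjusted p = 0.00696) with the length trend removed.

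When CK666 was given to cells with the Arp4 siRNA, Igf1 fell back while Irs2 rose. Compared with siArp4, 1 member was called (Irs2, higher), beside 1.63% of tested genes called higher and 4.12% lower, and 2 passed on adjusted p alone (Igf1 also), beside 9.90% of all tested genes. Igf1 lay at 399, 385 and 298 in siArp4+CK666, below all siArp4 libraries, and fell by 0.91 (SE 0.20, DESeq2 adjusted p = 8.57e-05). With the length trend removed the fall was 1.02 on the log2 scale (-1.02), past the fold minimum. Irs2 lay at 375, 392 and 219 and rose by 1.59 (SE 0.32, DESeq2 adjusted p = 1.23e-05), and each of these libraries was above each siArp4 library. Igfbp4 at 5673, 6518 and 8407 was below all siArp4 libraries, with a difference of -0.67 (SE 0.24) that did not pass the threshold (DESeq2 adjusted p = 0.0363).

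Against siControl, the combination left 0 members called by DESeq2 and 0 by edgeR, beside 8.06% of tested genes called higher and 12.4% lower, and 4 members had an unadjusted p below 0.05. Irs2 was the member that passed on adjusted p, as did 29.9% of all tested genes. It rose by 0.98 (SE 0.31, DESeq2 adjusted p = 0.00621), and without siControl replicate 1 (1.26) or without siArp4+CK666 replicate 3 (1.202) it passed both thresholds. Igf1 differed from siControl by -0.09 (95% interval -0.48 to 0.30). The Igf1 values of both groups overlapped.

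The scarce binding protein Igfbp5 could be read only in the second experiment. It lay at 19.3, 11.3 and 15.9 normalized counts in siControl, at 0, 4.32 and 13.02 in siArp4, and at 41.2, 32.4 and 21.1 with siArp4+CK666. The combination was above siArp4 in all libraries, but the log2 difference of 2.47 (SE 0.83) had a DESeq2 adjusted p of 0.0235. It was called without siArp4 replicate 3 (3.997, DESeq2 adjusted p = 0.000701).

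Whether CK666 acted differently in knockdown cells was tested as the difference between both CK666 effects, fitted over all 18 libraries. This contrast also carries the transfection, which cannot be told apart from the knockdown here. Of the 10 members 1 was called higher and 1 lower, beside 1.90% and 2.52% of tested genes, and 7.82% of all tested genes passed on adjusted p. Irs2, which was lower with CK666 in untransfected cells and higher with CK666 in knockdown cells, had a difference of 2.48 (95% interval 1.79 to 3.18, DESeq2 adjusted p = 2.42e-10). For Igfbp4 the effect of CK666 changed in the other direction, by -1.19 (95% interval -1.69 to -0.70, DESeq2 adjusted p = 6.97e-05). Both calls were kept under each alternative that was run. For Igf1, lower with CK666 in both settings, the difference was 0.06 (95% interval -0.50 to 0.63, DESeq2 adjusted p = 0.927), and for Igf1r it was 0.33 (95% interval -0.50 to 1.16).

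**Figure D3:**
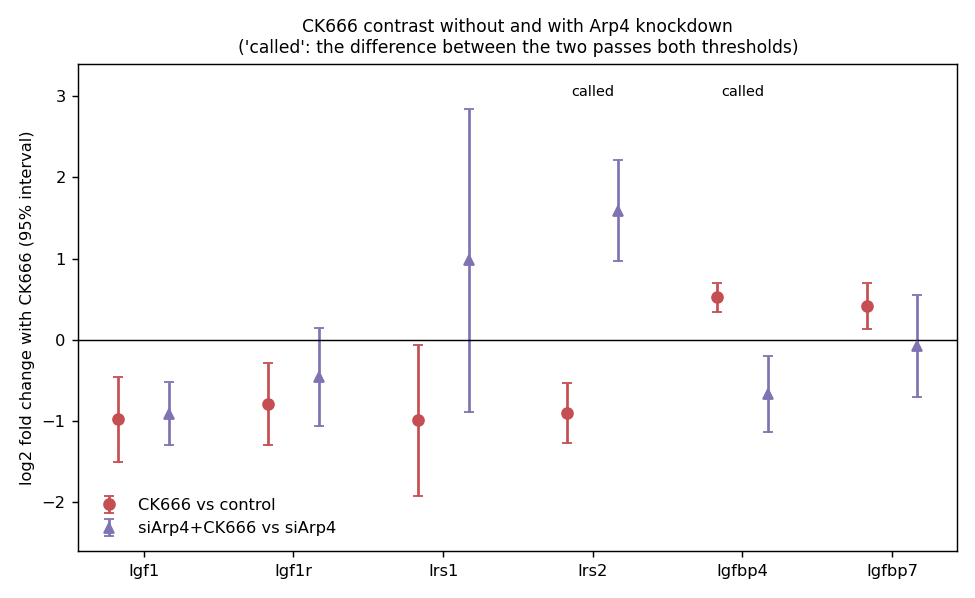
Log2 fold change with CK666 (y axis) and its 95% interval for 6 members, in untransfected cells (red circles, CK666 against control) and in cells with the Arp4 siRNA (purple triangles, siArp4+CK666 against siArp4). The pair of points for Irs2 lies on opposite sides of 0, at -0.90 and 1.59, and that for Igf1 lies close together, at -0.98 and -0.91.

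Irs1 needs separate treatment, because its counts cannot be taken at face value. Within groups they spread widely. They were 2325, 2862 and 2634 in control, 476, 1970.5 and 1482 with CK666, and 3684, 3359.9 and 2884 with CytoD. In transfected cells they were 2288, 142 and 479 in siControl, 1649, 1526 and 2753 in siArp4, and 6558, 3571 and 1549 with siArp4+CK666. With these values Irs1 was called in no comparison, and its log2 difference from siControl was 1.03 (SE 0.95) for siArp4, and 2.005 (SE 0.95) for the combination.

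Irs1 lies on the minus strand at chr1:82233101-82291416 (GRCm38), with its coding sequence in the first exon and an untranslated second exon at chr1:82233101-82237604. A predicted gene on the plus strand, Gm9747, at chr1:82233112-82235933, lies wholly inside that second exon and shares all its 2822 bases with Irs1. The libraries were unstranded, so reads from this stretch could be assigned to either gene. Gm9747 held 277 to 805 normalized counts in the first experiment and 1371 to 6093 in the second. The share of the joint count given to Irs1 was 5.30% in siControl replicate 2 and 62.5% in siControl replicate 1, and 40.6% in CK666 replicate 1 against 87.7% in CK666 replicate 2. Over the 9 libraries of each experiment the share was lowest in the library with the lowest length slope, where long transcripts had fewer counts, and highest in the library with the highest slope. What made the share vary was not tested.

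The sum of Irs1 and Gm9747, an alternative chosen once the data had been seen, was far steadier. It was 2873, 3334 and 3068 in control, 1172, 2248 and 1868 with CK666, and 4218, 3980.4 and 3689 with CytoD. In transfected cells it was 3659, 2682 and 3064 in siControl, 5568, 5563 and 6219 in siArp4, and 10240.7, 8504 and 7642 with siArp4+CK666. None of the 3 groups overlapped with another in either experiment. The sum fell by 0.81 with CK666 (SE 0.20, DESeq2 adjusted p = 0.000242), and it was 0.36 higher with CytoD, which did not pass (DESeq2 adjusted p = 0.149). Between the drugs the difference was -1.17 (SE 0.20, DESeq2 adjusted p = 3.92e-08), a call that Irs1 alone had missed.

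In siArp4 the sum rose by 0.88 (SE 0.19, DESeq2 adjusted p = 1.84e-05). In siArp4+CK666 it rose by 1.49 over siControl (SE 0.19, DESeq2 adjusted p = 2.61e-14), and its difference from siArp4 was 0.60 (SE 0.19, DESeq2 adjusted p = 0.011). The difference between both CK666 effects was 1.41 (95% interval 0.87 to 1.95, DESeq2 adjusted p = 1.43e-05). Irs2 was thus lower with CK666 in untransfected cells, and its CK666 effect shifted upwards in knockdown cells. The sum moved the same way in both respects. Irs1 alone did so too, but passed in neither test. Its log2 difference with CK666 was -0.99 (DESeq2 adjusted p = 0.0827). Its difference between both CK666 effects was 1.956 (95% interval -0.171 to 4.083, DESeq2 adjusted p = 0.257). Gm9747 averaged 485 beside 2607 for Irs1 in control, and 4903 beside 3893 in siArp4+CK666. Whether the reads of the sum came from Irs1 or from Gm9747 was not tested, so the sum is not read as Irs1.

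**Figure D4:**
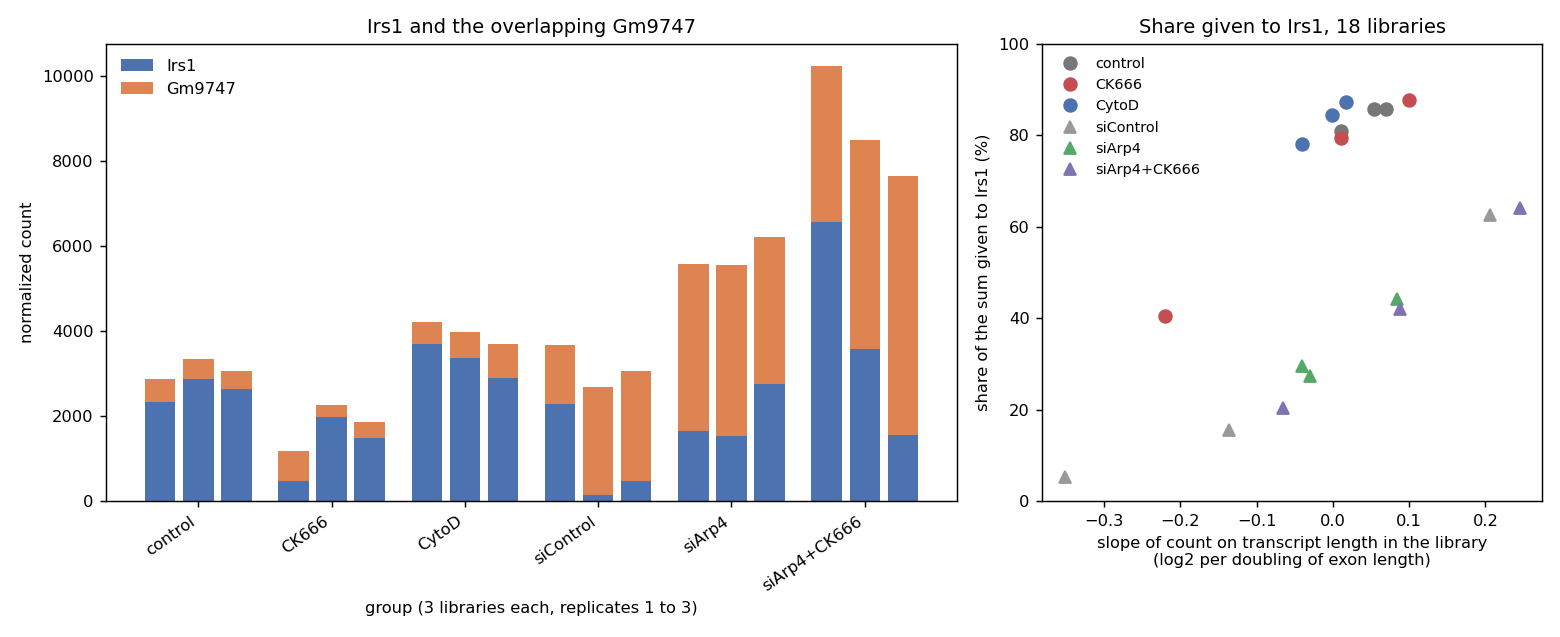
Left, normalized counts of Irs1 (blue) and of the overlapping Gm9747 (orange) stacked for each of 18 libraries, by group. Right, the share of the sum given to Irs1 (%) against the slope of count on transcript length of the same library (log2 per doubling of exon length), with circles for the first and triangles for the second experiment. In the second experiment the share runs from 5.30% at the slope of -0.35 to 64.0% at the slope of 0.24.

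The promoters of the members were read from RefSeq (GRCm38.p6) as the 250 bases before and 50 bases after each start, and all 10 members matched, with 11 promoters. They were searched on both strands for short motifs known from insulin and nutrient control. The core of the insulin response element, CAAAACA, which forkhead factors bind, was found in those of Irs1 and Irs2 only, and in 6.28% of all 32851 promoters of this length. The related forkhead core GTAAACA was in none of the 11 (3.65% of all promoters), nor was TGATGCAA, the amino acid response element (0.895%). An E-box, CACGTG, stood in those of Irs1, Irs2 and Igfbp2 (7.15% of all). It overlapped the distal insulin response core of Irs1. A GC box, GGGCGG, was in 5 of the 11 (35.7% of all) and TATAAA in those of Igfbp4 and Igfbp6 (13.6% of all). The 250 bases before the RefSeq start of both docking protein genes are shown because they share the element. Capitals mark the core, which reads TGTTTTG on the strand of the gene. They lie at chr1:82291440-82291689 and chr8:11008930-11009179, both on the minus strand.
Irs1: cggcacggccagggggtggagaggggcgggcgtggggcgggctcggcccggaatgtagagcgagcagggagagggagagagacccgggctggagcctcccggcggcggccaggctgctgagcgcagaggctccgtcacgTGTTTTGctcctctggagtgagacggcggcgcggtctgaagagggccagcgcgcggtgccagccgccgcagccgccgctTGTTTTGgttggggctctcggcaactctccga
Irs2: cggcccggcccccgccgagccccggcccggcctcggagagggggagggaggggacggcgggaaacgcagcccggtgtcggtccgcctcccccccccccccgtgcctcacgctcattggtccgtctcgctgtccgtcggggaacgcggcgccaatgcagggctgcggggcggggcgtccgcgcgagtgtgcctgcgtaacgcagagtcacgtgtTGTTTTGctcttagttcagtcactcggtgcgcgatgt
These matches are letters in a window, and no binding was measured here.

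The genomic places of the other members are as follows, all in GRCm38. Igf1 lies at chr10:87858265-87937042 on the plus strand, and Igf1r at chr7:67952827-68233668 on the plus strand. Irs2 lies at chr8:10984681-11008458 on the minus strand. Igfbp2 (chr1:72824503-72852474, plus strand) and Igfbp5 (chr1:72857932-72874884, minus strand) are tail-to-tail neighbours. Igfbp4 (chr11:99041244-99054392, plus strand) and Igfbp3 (chr11:7206086-7213923, minus strand) share a chromosome but are far apart. Igfbp6 lies at chr15:102144362-102149511 on the plus strand and Igfbp7 at chr5:77349240-77408041 on the minus strand. Igfbp7 shares 85 exon bases with Polr2b on the opposite strand, so a small part of its counts is uncertain.

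For the genes most alike in pattern, log2(normalized count + 1) of each library was taken relative to the control group of its experiment, and genes with a mean of at least 100 were ranked by their root mean square difference over 18 libraries. For Igf1r the 3 closest of 10327 genes were Steap2 (0.30), Thbs2 (0.31) and mt-Nd4 (0.31), and for Igfbp4 they were Ubl7 (0.21), Cetn4 (0.22) and Ggact (0.22). Among the members themselves Igf1 ranked 538 for Igf1r, at 0.50, and Igfbp7 ranked 895 for Igfbp4, at 0.53. For both Igf1r and Igfbp4, the 3 closest genes held no other member. With so few members among 10327 genes this was likely in any case, so nothing is read from it.

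Around these 10 genes stood a wider list of 72 genes of insulin and IGF signalling, grouped by role. Of those tested with CK666 (64), 4 were called higher and 3 lower (background 4.89% and 6.06% of all tested genes), and the median log2 fold change of the list was -0.02 beside 0.01 for all tested genes. With CytoD (63 tested) 4 were called higher and 2 lower (background 4.80% and 4.32%, medians -0.05 and 0.01), and between the drugs (64 tested) 4 higher and 7 lower (background 5.08% and 6.74%, medians -0.04 and -0.03). With siArp4 (63 tested) 2 were called higher and 5 lower (background 6.69% and 9.49%, medians 0.17 and -0.05), and with siArp4+CK666 against siControl 7 higher and 4 lower (background 8.06% and 12.4%, medians 0.31 and -0.05). Against siArp4 1 was called higher and 1 lower (background 1.63% and 4.12%, medians 0.21 and 0.02), and in the difference between both CK666 effects 2 higher and 3 lower (background 1.90% and 2.52%, medians 0.30 and -0.03).

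Of 3 ligands 1 had an adjusted p, and of 3 receptors 2. Igf2, the other IGF ligand, rose with CytoD, from 541, 556 and 517 to 1180, 1121 and 1109 normalized counts (log2 1.08, SE 0.12, DESeq2 adjusted p = 2.22e-18). None of its control libraries came near those with CytoD. On adjusted p alone Igf2 was also lower with CK666 than with CytoD (-0.75). By the same measure it was higher than siControl in siArp4 (0.85) and in siArp4+CK666 (0.84). The shares of all tested genes that passed on adjusted p are those given above for these comparisons. Of the receptors Insr and Igf2r were tested, and neither was called in any comparison.

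Of the 6 proteases that free IGFs from binding proteins and their inhibitors, all tested, 1 was called higher and 2 lower with CK666, 2 higher with CytoD, 1 higher and 4 lower with CK666 against CytoD, 1 lower with siArp4, 2 higher and 1 lower with siArp4+CK666 against siControl, and 1 lower against siArp4. The shares of all tested genes called in these comparisons are those given for the whole list, and over 6 genes nothing particular to the proteases is read from the counts. Pappa, whose protein cuts the Igfbp4 protein, had a mean below 100 and is named after its values were seen, for its link to Igfbp4. It fell with CK666 from 83.2, 94.5 and 65.2 to 15.7, 37.7 and 20.5 normalized counts (log2 -1.72, SE 0.34, DESeq2 adjusted p = 4.31e-06). In knockdown cells CK666 took it from 58.1, 74.5 and 99.2 to 30.7, 18.1 and 10.5 (log2 -1.97, SE 0.54, DESeq2 adjusted p = 0.00328), a call that edgeR did not make (adjusted p = 0.0451). That call was also lost without siArp4 replicate 1, 2 or 3 and without siArp4+CK666 replicate 2 or 3 (adjusted p 0.0132 to 0.0598). Stc2, a secreted inhibitor of this protease, rose with CK666 from 238, 229.8 and 229 to 487, 463 and 490.1 (log2 1.05, SE 0.13, DESeq2 adjusted p = 5.38e-14). Stc1, a relative of Stc2 on the same list, went the other way. With a mean below 100, it too is named after its values were seen. It lay at 16.4, 21.4 and 17.6 in control, 11.8, 3.06 and 7.44 with CK666, and 78.6, 85.2 and 80.4 with CytoD.

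Adam12, a further protease of binding proteins, fell with CK666 (log2 -1.10, SE 0.25, DESeq2 adjusted p = 7.32e-05), by 0.84 without CK666 replicate 1 (-0.84). It also fell with siArp4 (log2 -1.90, SE 0.39, DESeq2 adjusted p = 8.13e-06), where its 3 libraries lay at 112, 117 and 113 against 632, 274 and 367 in siControl. Pappa2, a relative of Pappa, rose with CytoD (log2 1.27, SE 0.40, DESeq2 adjusted p = 0.0058), but edgeR did not call it (adjusted p = 0.0331). Leaving out any library but control replicate 3 or a CK666 library also lost that call (adjusted p 0.0134 to 0.0506). Pappa2 was lower with CK666 than with CytoD by 1.90 on the log2 scale (-1.90, SE 0.41, DESeq2 adjusted p = 1.88e-05).

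Further down the pathway the largest fold change of the list with CK666 belonged to Trib3, a pseudokinase that binds AKT and is induced by stress. It went from 267, 304 and 314 in control to 8849, 6367 and 7086 with CK666 (log2 4.66, SE 0.17, DESeq2 adjusted p = 2.35e-169), and to 84.0, 54.2 and 76.2 with CytoD (log2 -2.05, SE 0.19, DESeq2 adjusted p = 2.2e-24). After transfection Trib3 lay at 42.8, 106 and 75.6 in siControl, 179, 185 and 129 in siArp4, and 840, 1063 and 1230 with siArp4+CK666. CK666 raised it in knockdown cells too, by 2.67 (SE 0.32, DESeq2 adjusted p = 1.75e-14), and the difference between both CK666 effects was -1.99 (SE 0.37, DESeq2 adjusted p = 2.93e-06). Of 17 AKT substrates and mTOR genes, all tested, 2 rose and 3 fell on adjusted p with CK666, beside 30.0% of all tested genes. Nothing particular to this role is read from the counts. Ddit4 (log2 1.56, SE 0.14) and Eif4ebp1 (log2 1.42, SE 0.18) rose (DESeq2 adjusted p = 6.1e-28 and 6.04e-14), and both act as brakes on mTOR or translation. Other brakes, Eif4ebp2 (log2 -0.76, SE 0.18, DESeq2 adjusted p = 8.01e-05) and Deptor (log2 -0.81, SE 0.21, DESeq2 adjusted p = 0.000441), fell, under the fold minimum (named after their values were seen). Without CK666 replicate 2 Deptor was called (-1.06, DESeq2 adjusted p = 3.34e-09). Rps6kb1, of the same role and also named after its values were seen, went from 1158, 1191 and 1163 in control to 729, 713 and 810 with CK666. With CytoD Pik3cb, a catalytic PI3-kinase subunit, fell from 557, 529 and 624 to 199, 195 and 198 (log2 -1.53, SE 0.18, DESeq2 adjusted p = 9.29e-17). The regulatory subunit gene Pik3r3 rose with CytoD (log2 1.05, SE 0.16, DESeq2 adjusted p = 1.48e-09). Set against CytoD, CK666 gave higher Trib3 (6.70), Eif4ebp1 (2.02), Stc2 (1.79) and Socs2 (1.46), each called by DESeq2.

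Of 11 tested genes of the RAS to ERK arm 0 were called higher and 2 lower with siArp4. In the PI3-kinase to AKT arm, with 14 tested, 2 were called higher and 1 lower. Among 12 tested receptor adaptors and negative regulators 0 were called higher and 1 lower (Socs2). Of all tested genes 6.69% were called higher and 9.49% lower, and nothing particular to these roles is read from the counts. Nras, a RAS GTPase, fell from 3174, 4305 and 3134 in siControl to 961, 996 and 989 in siArp4 (log2 -1.85, SE 0.24, DESeq2 adjusted p = 2.08e-13). Mapk3, an ERK kinase, fell from 3478, 9841 and 5197 to 1465, 1525 and 1451 (log2 -2.06, SE 0.36, DESeq2 adjusted p = 1.14e-07). Socs2, which restrains growth hormone signalling upstream of Igf1, fell from 799, 756 and 678 to 141, 108 and 89.2 (log2 -2.72, SE 0.23, DESeq2 adjusted p = 2.58e-29). Pik3ca, a catalytic subunit of PI3-kinase, rose from 1267, 606 and 561 to 1955, 2046 and 2182 (log2 1.34, SE 0.31, DESeq2 adjusted p = 9.11e-05). For all 4 the groups did not overlap, and all 4 were also called in siArp4+CK666 against siControl, which shares the siControl libraries.

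**Figure D5:**
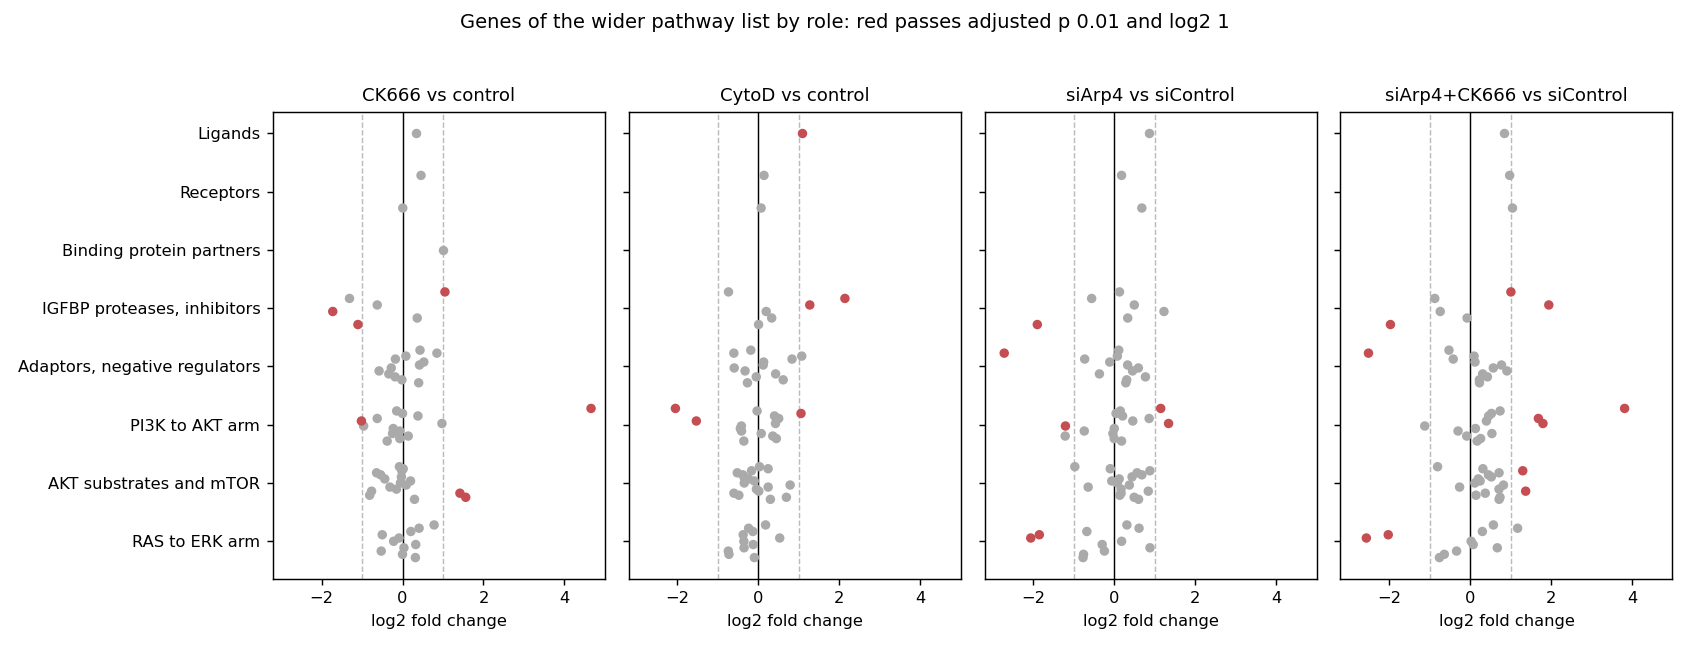
Log2 fold changes (x axis) of the genes of the wider list that had an adjusted p, in rows by role, for CK666 and CytoD against control and for siArp4 and siArp4+CK666 against siControl. Red points pass an adjusted p of 0.01 and a log2 fold change of 1, with Trib3 at 4.66 in the CK666 panel and at 3.82 in the siArp4+CK666 panel.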

How the data were processed

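Per the labels and the methods of the study, the authors sequenced unstranded read pairs, quantified them with Salmon 1.2.1 against GENCODE vM25 (GRCm38) and deposited gene-level estimated counts that were not scaled across libraries. The members and gene lists were chosen with earlier results of these data known. Estimated counts were rounded. Symbols and coordinates came from GENCODE vM21 of the same build (54094 identifiers matched, 253 did not). The 9 libraries of each experiment were fitted with DESeq2 1.42.0 (R 4.3.3, two-sided Wald test), and the difference of CK666 effects over all 18. Calls needed an adjusted p below 0.01 over all genes tested and a log2 fold change over 1 in size. Normalized counts were scaled within an experiment unless stated otherwise. The alternatives were edgeR 4.0.16, TMM factors, a filter of 10 counts in 3 libraries, a replicate block, 1 joint fit, no fold minimum and leaving out each library. On simulated counts for the CK666 comparison (54347 genes) DESeq2 recovered 196 of 200 genes changed by 2 on the log2 scale, with 4 false calls, and edgeR 190 with 1. For siArp4 (also 54347 genes) DESeq2 recovered 189 of 200 with 18 false calls, and edgeR 142 with 0, so edgeR missed more true changes there. By the study's methods the 3 libraries of a condition were separate preparations. Of the wider list, the text names up to 5 called genes a comparison with a mean of at least 100, by size of fold change, and gives the rest as counts. Same-numbered replicates did not deviate together.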

Additional observations from a re-analysis of the deposited data

Results flagged for a closer look

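Among the 10 members and the 72 genes of the wider list, 7 were called for a difference between the effect of CK666 in cells with the Arp4 siRNA and its effect in untransfected cells, by the DESeq2 test of that difference over 18 libraries, beside 1.90% of all tested genes called higher and 2.52% called lower. Among the members these were Irs2 (log2 difference 2.48) and Igfbp4 (-1.19), both described above. In the wider list they were Trib3 (-1.99), Ddit4 (-1.32), Socs3 (-1.07), Pik3r1 (1.44) and Eif4ebp2 (1.29). Pik3r1 was not called by edgeR (adjusted p = 0.0225), and its call was lost without control replicate 2, siArp4 replicate 1 or siArp4+CK666 replicate 1 (adjusted p 0.0101 to 0.0145). Socs3 fell under the fold minimum with the length trend removed (-0.97). Transfection and knockdown cannot be told apart in this contrast.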

How the results depend on the processing

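With no fold minimum the members passing numbered 4 for CK666, 1 for CytoD, 3 for CK666 against CytoD, 1 for siArp4+CK666 against siControl and 2 against siArp4, and the wider genes 22, 25, 27, 12 (siArp4), 21, 5 and 8 (difference of CK666 effects). edgeR called 1 member for siArp4 and 1 wider gene for siArp4+CK666 against siArp4. The replicate block called 1 member, Irs1, for CK666 against CytoD (-1.48) and 1, again Irs1, for siArp4+CK666 against siControl (2.47), and moved no other count of calls by over 1.5 times. Summing Irs1 with Gm9747 gave 1 member in each of the same comparisons. With the length trend removed 1 member was called for CK666 against CytoD, 1 for siArp4 and 2 for siArp4+CK666 against siArp4. Leaving out each library in turn gave 0 to 2 members for CK666, 0 for CytoD, 0 to 1 for CK666 against CytoD, 1 to 2 for siArp4, 0 to 2 for siArp4+CK666, 1 to 2 against siArp4 and 2 to 3 for the difference of effects. The wider counts ran from 6 to 9, 5 to 6, 8 to 11, 5 to 14, 10 to 17, 1 to 4 and 4 to 7 in the same order. Without siControl replicate 1 Irs1 was called against siControl in siArp4 (2.66) and in siArp4+CK666 (3.65). Without CK666 replicate 2 Irs1 was called in CK666 against control (-1.41) and against CytoD (-1.75).

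Signs changed only for differences near 0. For the difference of effects Igf1 was -0.14 with the length trend removed, and for siArp4+CK666 against siArp4 Igfbp7 was 0.050. On leaving out 1 library, Igf1 ran from -0.25 to 0.039 (CytoD), -0.18 to 0.027 (siArp4+CK666) and -0.069 to 0.23 (difference of effects), and Igfbp7 from -0.16 to 0.34 (siArp4), -0.24 to 0.27 (siArp4+CK666) and -0.30 to 0.11 (against siArp4). TMM factors, the low count filter and the joint fit kept all member calls. Depth limits Igfbp2, Igfbp3, Igfbp5 and Igfbp6. The same-numbered replicates correlated from -0.66 to 0.80 in the second experiment, so the number is not treated as a pairing.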
